A study of Drosophila melanogaster with 12 samples.

Results

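Insulin signalling and the genes switched on by the transcription factor *foxo* were followed in the heads of male Drosophila melanogaster exposed to oxidative stress (OS). The set was chosen by name and holds 9 genes. They are the insulin-like peptides *Ilp2*, *Ilp3*, *Ilp5* and *Ilp6*, the binding protein *ImpL2*, the receptor *InR*, the adaptor *chico*, *foxo* itself and the *foxo* target *Thor*. Of these 9 genes, 8 could be found among the 15682 genes measured. The FlyBase ID paired with *InR* in the annotation used here matched no gene of the table, so *InR* was not analysed here. All 8 genes passed the minimum of 10 normalized counts on average, as did 10530 genes in all.

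Flies labelled G9aDD1 carry a null allele of the histone methyltransferase G9a, made by P-element excision, and are called homozygous in the labels, while the controls, of the same background, had the element excised precisely. Males aged 5 to 9 days were placed on food with 50 mM paraquat, a compound that generates reactive oxygen species, and heads were collected after 0, 6 and 12 h. Each of the 6 combinations of genotype and hour had 2 libraries, each made from 200 pooled heads, and the mutants are represented by 1 allele. No library came from flies kept off paraquat until the 6 or 12 h collection, so paraquat, hour of the day and time since transfer cannot be told apart.

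In insects as in mammals, insulin-like peptides bind a receptor tyrosine kinase, which acts through *chico* and phosphatidylinositol 3-kinase on the kinase Akt. Active Akt phosphorylates *foxo* and keeps it out of the nucleus. When insulin signalling is low, or when stress kinases act on it, *foxo* enters the nucleus and activates genes that restrain growth and mobilize stores. *Ilp2*, *Ilp3* and *Ilp5* are made mainly by the insulin-producing cells, a small cluster of neurosecretory neurons in the brain, whereas *Ilp6* is made largely by the fat body, the fly's fat and liver tissue. The activity of *foxo* is set mostly by where the protein is, which messenger RNA levels do not report.

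All genes of the series were tested together. Reads on genes numbered 19275805 to 41393992 per library and were highest at 0 h (32325896 to 41393992), so depth and hour go together. The 8 genes were covered by 154 to 23598 reads in a library. Values are counts that the authors divided by a size factor for each library, called normalized counts below. A change was called when limma, run over 10530 genes after adding 1 to each normalized count and taking log2, gave 1.5-fold or more with a p of no more than 0.05 after Benjamini-Hochberg adjustment. The median log2 fold change of all genes lay between -0.01 and 0.02 in each comparison. The labels do not say whether duplicates came from separate cohorts of flies, so p-values measure the spread between these libraries only. Counts on the G9a gene were 0.29 higher on the log2 scale in mutants than in controls at 0 h (limma adjusted p = 0.0026, not called), and as no source here names the excised exons, this count cannot check the genotypes.

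**Figure D1:**
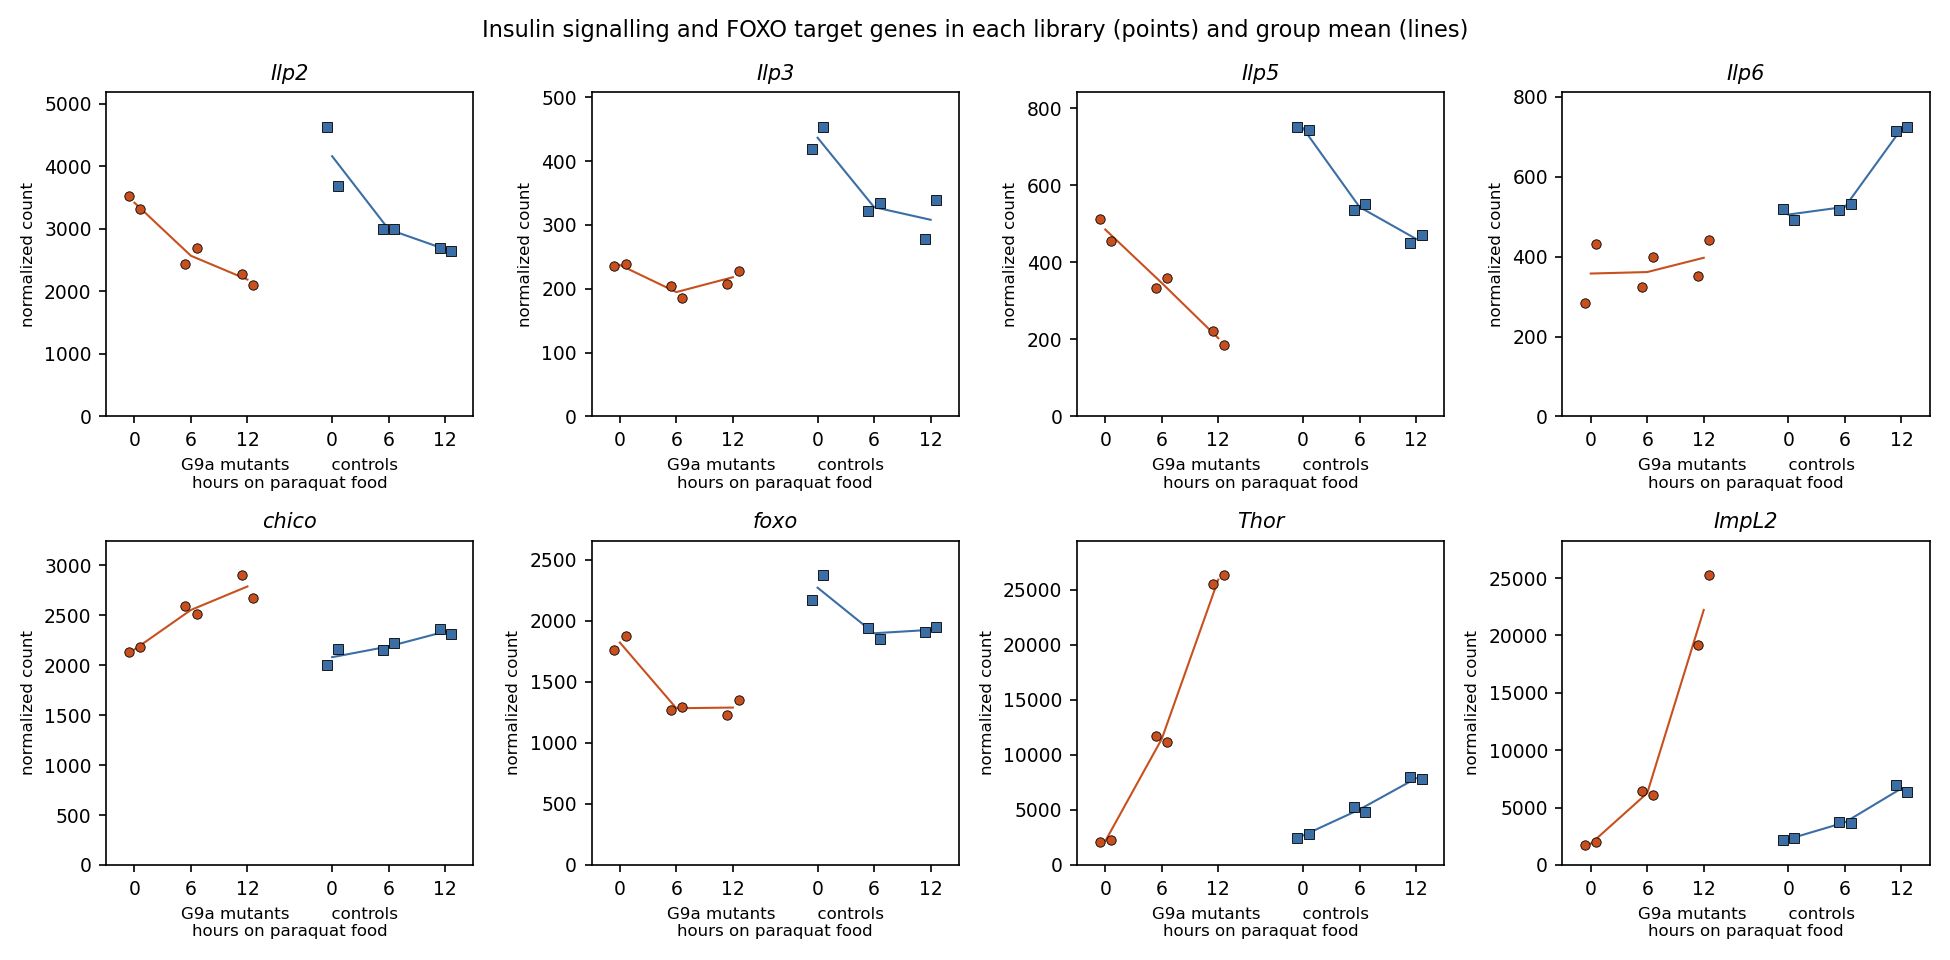
Normalized counts (vertical axis, linear, from 0) of the 8 genes in every library, with G9a mutants (circles) left of controls (squares) and hours on paraquat food along the horizontal axis. Points are libraries and lines join the means of 2 libraries. *Thor* and *ImpL2* climb in both genotypes and reach 25531 and 26307 (*Thor*) and 19196 and 25248 (*ImpL2*) in mutants at 12 h, while *Ilp2* and *Ilp5* decline.

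*Thor* and *ImpL2*, which both restrain the pathway's output, rose in both genotypes and rose further in mutants. *Thor* encodes 4E-BP, a repressor of cap-dependent translation and the best known *foxo* target in flies. In mutants *Thor* had 2045 and 2285 normalized counts at 0 h, 11712 and 11193 at 6 h, and 25531 and 26307 at 12 h. Controls had 2490 and 2852 normalized counts at 0 h, 5298 and 4776 at 6 h, and 7954 and 7782 at 12 h. No library of one hour overlapped one of another hour within a genotype. At 0 h both mutant libraries were below both control libraries, and at 6 and 12 h both were above them. The increase at 12 h was 12.0-fold in mutants (log2 fold change 3.58, standard error (SE) 0.07, limma adjusted p = 4.8e-11) and 2.95-fold in controls (1.56, SE 0.07, adjusted p = 6.7e-08). At 6 h it was already 5.30-fold in mutants and 1.89-fold in controls. The response at 12 h was 4.06 times as large in mutants as in controls, a difference of 2.02 on the log2 scale (SE 0.10, limma adjusted p = 2e-07), and at 6 h the difference was 1.49 (SE 0.10, adjusted p = 7.3e-06). Mutants stood 0.30 below controls on the log2 scale at 0 h (adjusted p = 0.011, not called) and 3.29-fold above them at 12 h (adjusted p = 1.4e-08).

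*Thor* also rose between 6 and 12 h, 2.26-fold in mutants (limma adjusted p = 8.9e-07) and 1.56-fold in controls (adjusted p = 0.00027). The control value was near the 1.5-fold limit. Without control 6 h replicate 2 it was 0.57 on the log2 scale and no longer called.

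*ImpL2* is a secreted protein that binds insulin-like peptides and keeps them from the receptor. In mutants it had 1711 and 1977 normalized counts at 0 h, 6460 and 6066 at 6 h, and 19196 and 25248 at 12 h. In controls it had 2145 and 2356 normalized counts at 0 h, 3742 and 3684 at 6 h, and 7006 and 6340 at 12 h. The mutant libraries at 12 h differed more from each other than any other duplicates of this gene, yet the lower one was more than any control library. *ImpL2* increased 12.0-fold in mutants (log2 fold change 3.58, SE 0.11, limma adjusted p = 3.9e-10) and 2.96-fold in controls (1.57, SE 0.11, adjusted p = 1.3e-06) at 12 h. The responses differed by 1.04 on the log2 scale at 6 h (SE 0.16, adjusted p = 0.00093) and by 2.01 at 12 h (SE 0.16, adjusted p = 3.3e-06). From 6 to 12 h *ImpL2* rose 3.52-fold in mutants and 1.79-fold in controls (adjusted p = 8.3e-07 and 0.00072). At 0 h mutants did not pass the test against controls (-0.29, SE 0.11, adjusted p = 0.078). In the later annotation used for names, 1651 of the 2667 exon bases of *ImpL2* are shared with *CG46460* on the same strand, a gene that is not in the table, so reads from both would have been counted together.

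Among the insulin-like peptides, *Ilp2* and *Ilp5* fell in both genotypes, *Ilp5* and *Ilp3* were lower in mutants than in controls before any exposure, and *Ilp6* was lower in mutants at 12 h. In bulk heads, fewer cells of a type and less RNA per cell cannot be told apart.

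*Ilp2*, the most abundant of the 4 peptides per length, had 3528 and 3311 normalized counts at 0 h, 2444 and 2696 at 6 h, and 2281 and 2099 at 12 h in mutants. Controls had 4634 and 3690 at 0 h, 2992 and 2993 at 6 h, and 2700.3 and 2648 at 12 h. Every later library lay below both 0 h libraries of its genotype. The 12 h level was 1.56-fold lower than at 0 h in mutants (log2 fold change -0.64, SE 0.09, limma adjusted p = 9.2e-05) and 1.55-fold lower in controls (-0.63, SE 0.09, adjusted p = 0.00027). The responses differed by -0.01 (SE 0.13, adjusted p = 0.95). Both calls were close to the fold limit. The mutant value was -0.58 without mutant 12 h replicate 2 and the control value -0.46 without control 0 h replicate 1, and neither was then called. At 6 h the control value (-0.47) was not called with all libraries, but was at -0.63 without control 0 h replicate 2. Mutants were 0.27, 0.22 and 0.29 below controls on the log2 scale at 0, 6 and 12 h, with no call.

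*Ilp5* showed the widest change among the peptides. In mutants *Ilp5* had 513 and 456 normalized counts at 0 h, 333 and 359 at 6 h, and 221 and 185 at 12 h. Controls had 752 and 744 at 0 h, 536 and 551 at 6 h, and 451 and 470.3 at 12 h. Mutant and control libraries did not overlap at any hour, and the mutant 0 h libraries were near the control 12 h ones. At 12 h *Ilp5* was 2.39-fold lower than at 0 h in mutants (log2 fold change -1.26, SE 0.09, limma adjusted p = 4.5e-07) and 1.62-fold lower in controls (-0.70, SE 0.09, adjusted p = 0.00018). From 6 to 12 h it fell by 0.77 on the log2 scale in mutants (adjusted p = 0.00011), and in controls the change was -0.24 (adjusted p = 0.15). Against controls, *Ilp5* in mutants was 1.54-fold lower at 0 h, 1.57-fold lower at 6 h and 2.27-fold lower at 12 h (adjusted p = 0.00052, 0.00026 and 1.2e-06). The mutant response at 12 h minus the control response was -0.56 (SE 0.13, adjusted p = 0.0084), just inside the fold limit and so not called. That difference passed the limit at -0.61 with reads thinned to the smallest library. It also did so at -0.59 without control 12 h replicate 1, at -0.64 when mutant 0 h replicate 2 was left out, and at -0.68 when mutant 12 h replicate 1 was. The 0 h difference between genotypes was -0.54 and not called without mutant 0 h replicate 2.

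*Ilp3* was set apart by genotype more than by hour. In mutants *Ilp3* had 236 and 238 normalized counts at 0 h, 204 and 186 at 6 h, and 208 and 229 at 12 h, against 419.5 and 454 at 0 h, 322 and 334 at 6 h, and 278 and 339 at 12 h in controls. No mutant library reached the lowest control library. *Ilp3* was 1.84-fold lower in mutants than in controls at 0 h (log2 fold change -0.88, SE 0.11, limma adjusted p = 0.00013), 1.68-fold lower at 6 h (adjusted p = 0.00025) and 1.41-fold lower at 12 h (-0.49, adjusted p = 0.0032, not called). Without control 12 h replicate 1 the 12 h difference was -0.63 and called. The 12 h response was -0.12 in mutants (adjusted p = 0.37) and -0.51 in controls (adjusted p = 0.0039, not called), and the difference between them was 0.39 (SE 0.15, adjusted p = 0.087). The control response was called at -0.65 without control 12 h replicate 2 and at -0.61 with median centring. In the later annotation *Ilp2* lies between *Ilp1* and *Ilp3*, with no exon shared by *Ilp2* or *Ilp3* and another gene.

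*Ilp6* had the largest spread between duplicates, up to 29.3% of the mean (SD) in mutants at 0 h. In mutants *Ilp6* had 284 and 432 normalized counts at 0 h, 323 and 399.9 at 6 h, and 352 and 443 at 12 h. In controls it had 520.2 and 491 at 0 h, 517 and 532 at 6 h, and 715 and 725 at 12 h. All 6 mutant libraries were below all 6 control libraries. *Ilp6* was 1.82-fold lower in mutants than in controls at 12 h (log2 fold change -0.87, SE 0.17, limma adjusted p = 0.0016). At 0 and 6 h the differences were -0.53 and -0.54 (adjusted p = 0.042 and 0.03) and were not called, but were called at -0.83 when mutant 0 h replicate 2 was left out and at -0.70 when mutant 6 h replicate 2 was. The 12 h response was 0.17 in mutants (adjusted p = 0.43) and 0.51 in controls (adjusted p = 0.041, not called), with a difference of -0.34 (SE 0.24, adjusted p = 0.35) that was called at -0.64 without mutant 0 h replicate 1.

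**Figure D2:**
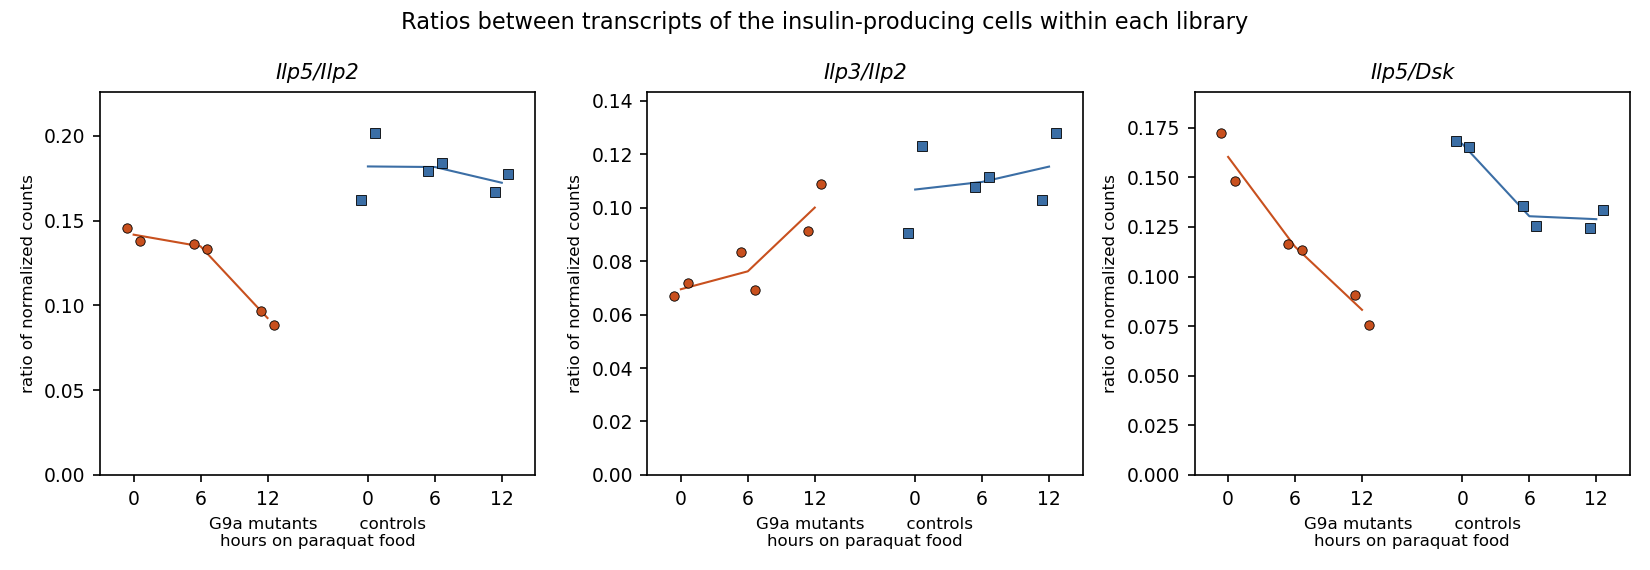
Ratios of normalized counts within each library (vertical axes, linear, from 0) for *Ilp5* to *Ilp2*, *Ilp3* to *Ilp2* and *Ilp5* to *Dsk*, with G9a mutants (circles) left of controls (squares) and hours on paraquat food along the horizontal axis. Points are libraries and lines join the means of 2 libraries. The mutant 12 h libraries hold the lowest *Ilp5* to *Ilp2* and *Ilp5* to *Dsk* ratios.

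Ratios between transcripts of the same cells do not depend on the scaling of a library. *Ilp5* was 14.6% and 13.8% of *Ilp2* at 0 h, 13.6% and 13.3% at 6 h, and 9.68% and 8.83% at 12 h in mutants. In controls *Ilp5* was 16.2% and 20.2% of *Ilp2* at 0 h, 17.9% and 18.4% at 6 h, and 16.7% and 17.8% at 12 h. The mutant 12 h ratios lay below those of all other libraries. *Ilp3* was 6.70% and 7.20% of *Ilp2* in mutants and 9.05% and 12.3% in controls at 0 h, and 8.33% and 6.90% in mutants and 10.8% and 11.2% in controls at 6 h, with no overlap at either hour. At 12 h *Ilp3* was 9.11% and 10.9% of *Ilp2* in mutants, against 10.3% and 12.8% in controls, and these groups overlapped. With 2 libraries against 2, an exact permutation test of one ratio cannot give a p below 0.333, and no other test of the ratios was made.

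Other transcripts of the insulin-producing cells were read beside these results. *Dsk*, a neuropeptide that these cells share with other neurons, had 2980 and 3079 normalized counts in mutants at 0 h and 2430 and 2451 at 12 h. In controls *Dsk* had 4463 and 4506 normalized counts at 0 h and 3625 and 3526 at 12 h. Mutants were 0.57 and 0.55 below controls on the log2 scale at 0 and 12 h (limma adjusted p = 3.8e-05 and 1.4e-05), inside the fold limit. *dimm*, a transcription factor of peptide-secreting cells, was lower in mutants at 0 h (log2 fold change -0.89, adjusted p = 0.0028) and fell in controls at 12 h (-0.67, adjusted p = 0.011). The fall in controls was not called with DESeq2 (-0.69), without control 0 h replicate 2 (-0.52) or without control 12 h replicate 2 (-0.62). The 0 h difference of *Dsk* was called at -0.59 without mutant 0 h replicate 2. Summed, these 2 markers ran at 3039 to 3138 in mutants and 4562 to 4629 in controls at 0 h, and at 2478 to 2498 in mutants and 3593 to 3697 in controls at 12 h. Neither marker was at 0 in any library. At 0 h *dimm* was 2.00% and 1.92% of *Dsk* in mutants and 2.23% and 2.73% in controls, so the sum follows *Dsk* almost alone. Relative to *Dsk*, *Ilp5* was 17.2% and 14.8% in mutants and 16.8% and 16.5% in controls at 0 h, and these overlapped. At 6 h it was 11.7% and 11.3% in mutants and 13.5% and 12.5% in controls, and at 12 h 9.08% and 7.56% in mutants and 12.4% and 13.3% in controls, which did not. *Ilp3* was 7.93% and 7.74% of *Dsk* in mutants and 9.40% and 10.1% in controls at 0 h, and 7.13% and 5.87% in mutants and 8.14% and 7.60% in controls at 6 h, lower in mutants at both hours. At 12 h the *Ilp3* to *Dsk* ratios overlapped, at 8.55% and 9.33% in mutants and 7.66% and 9.61% in controls. *Ilp2* was 118% and 108% of *Dsk* in mutants and 104% and 81.9% in controls at 0 h, and 93.9% and 85.6% in mutants and 74.5% and 75.1% in controls at 12 h. Relative to *Dsk*, then, *Ilp2* was higher in mutants than in controls, while its normalized counts were lower. The part of the number or state of these cells in the peptide levels was not tested.

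*chico*, the insulin receptor substrate of flies, had 2132 and 2182 normalized counts at 0 h, 2593 and 2513 at 6 h, and 2901 and 2676 at 12 h in mutants. Controls had 1998 and 2163 at 0 h, 2148 and 2227 at 6 h, and 2360.5 and 2313 at 12 h. All 4 later mutant libraries were above every control library. The 12 h value in mutants was 1.29 times that at 0 h (log2 fold change 0.37, SE 0.05, limma adjusted p = 0.00014), which is under the fold limit, and *chico* was called in none of the 11 comparisons. The responses at 12 h differed by 0.20 (SE 0.08, adjusted p = 0.076). An antisense RNA on the opposite strand, *asRNA:CR44995*, shares 380 of its 3578 exon bases in the later annotation. The library kit did not mark strand, so reads of the 2 cannot be told apart there.

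*foxo* had 1765 and 1880 normalized counts at 0 h, 1274 and 1294 at 6 h, and 1231 and 1348 at 12 h in mutants. In controls it had 2169.5 and 2373 at 0 h, 1941 and 1855 at 6 h, and 1906 and 1946 at 12 h. The mutant 0 h libraries were below or within the range of the later control libraries, and the later mutant libraries were below all others. Against 0 h, *foxo* was at -0.50 on the log2 scale in mutants at both 6 and 12 h (SE 0.06, limma adjusted p = 6.2e-05 and 3.2e-05) and at -0.26 and -0.24 in controls (adjusted p = 0.0099 and 0.012). Against controls, mutants were at -0.32 at 0 h, -0.56 at 6 h and -0.58 at 12 h (adjusted p = 0.0029, 3e-05 and 1.3e-05). Each of these p-values passed the threshold and each fold change stayed under 1.5, so *foxo* was not called. At 12 h the genotype difference was called at -0.59 with thinned reads, at -0.60 without control 12 h replicate 1 and at -0.65 when mutant 12 h replicate 2 was left out. At 6 h it was called at -0.60 without control 6 h replicate 2. The responses differed by -0.26 at 12 h (SE 0.09, adjusted p = 0.042, not called).

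**Figure D3:**
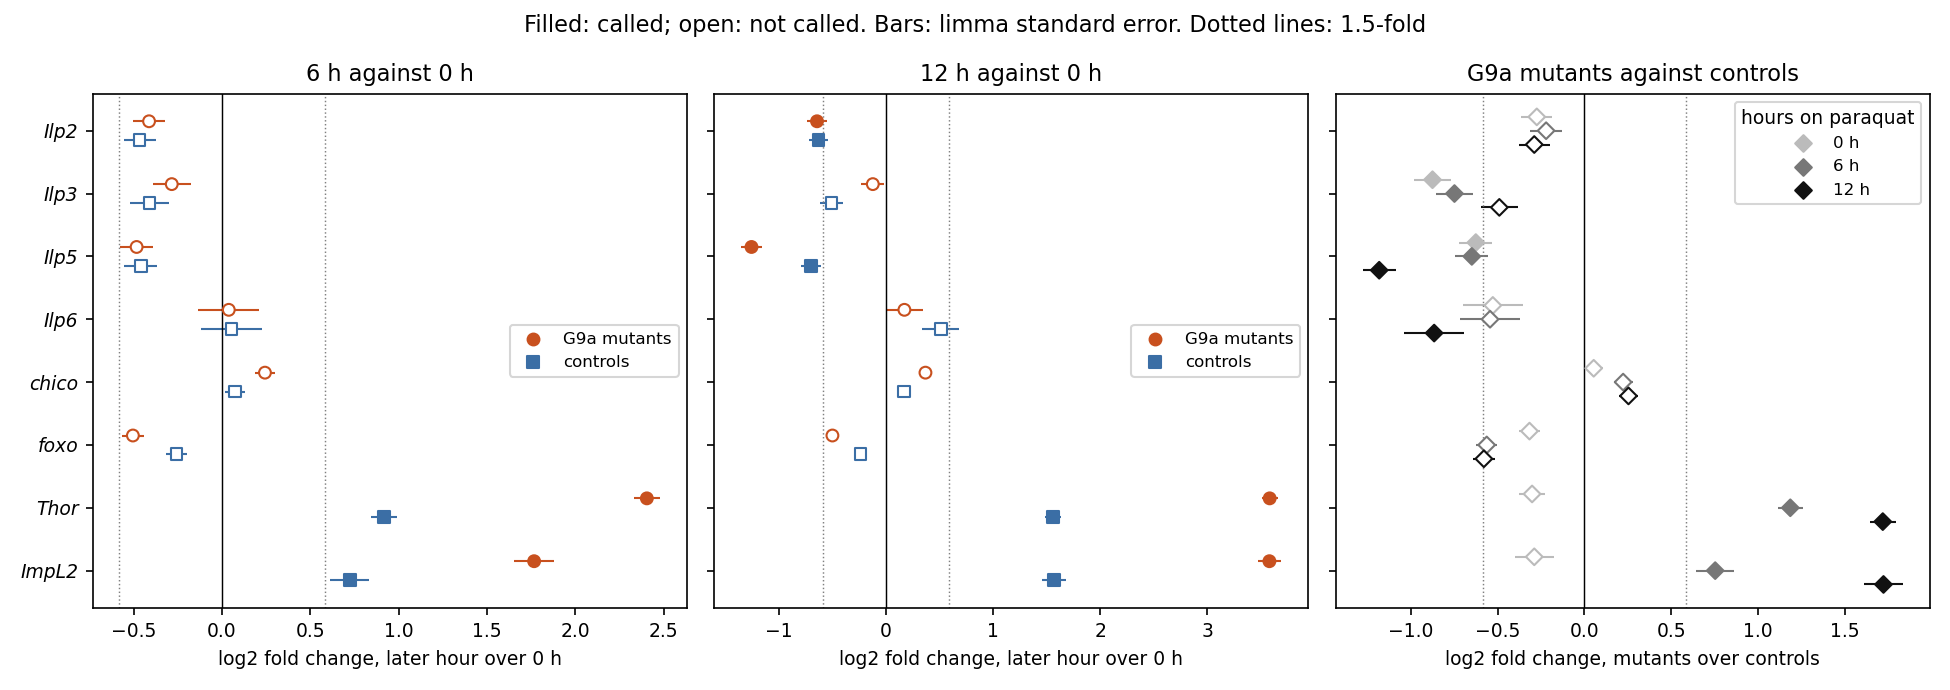
Log2 fold changes of the 8 genes (horizontal axes) at 6 h and at 12 h against 0 h in G9a mutants (circles) and controls (squares), and in mutants against controls at 0, 6 and 12 h (diamonds, pale to dark). Bars are limma standard errors, filled symbols passed both limits of a call, and dotted lines mark 1.5-fold. *Thor* and *ImpL2* lie at 3.58 in mutants and at 1.56 and 1.57 in controls at 12 h, while *foxo* lies at -0.50 in mutants and -0.24 in controls, both open.

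Counted over the 8 genes, *Thor* and *ImpL2* were the 2 called higher at 6 h against 0 h in mutants (8.05% of all genes tested were called higher) and the 2 called higher in controls (5.68% of all genes), and no member was called lower (5.19% of all genes in mutants and 1.6% in controls). At 12 h the same 2 were called higher in mutants (12.7% of all genes) and in controls (7.31%), and *Ilp2* and *Ilp5* were the 2 called lower in mutants (10.3%) and in controls (2.86%). Mutants differed from controls at 0 h in 2 members, *Ilp3* and *Ilp5*, both lower (5.25% of all genes lower, 5.04% higher). At 6 h the same 2 peptides were lower (7.39%) and *Thor* and *ImpL2* higher (6.53%). At 12 h *Ilp5* and *Ilp6* were lower (10.2%) and *Thor* and *ImpL2* higher (9.46%). The difference of the responses was called for *Thor* and *ImpL2*, higher in mutants, at 6 h (3.5% of all genes higher, 4.68% lower) and at 12 h (7.26% higher, 8.53% lower). From 6 to 12 h the same 2 were called higher in mutants (4.43% of all genes) and in controls (1.49%), and *Ilp5* was called lower in mutants (4.69%, with 1.94% of all genes lower in controls). edgeR and DESeq2 on the recovered reads each called 31 of the 88 results of the 8 genes, as limma did. These comparisons share libraries, the 0 h ones above all, and so are not independent of each other.

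Levels of different genes were set side by side per kilobase of exon. At 0 h the order was the same at its upper end in both genotypes. In mutants *Ilp2* had 5104 ± 229 normalized counts per kilobase (SD, n = 2), *Thor* 2867 ± 225, *Ilp5* 1014 ± 84.4 and *ImpL2* 691 ± 70.8, with *chico*, *foxo*, *Ilp3* and *Ilp6* below. In controls *Ilp2* had 6212 ± 996, *Thor* 3538 ± 339, *Ilp5* 1565 ± 11.3 and *ImpL2* 844 ± 55.8, followed by *Ilp3*, *chico* and *foxo* at 582 ± 32.4, 581 ± 32.5 and 549.99 ± 34.9, whose libraries overlapped from one to the next. At 12 h *Thor* led in both genotypes. In mutants it had 34330 ± 727 and *ImpL2* 8332 ± 1604, ahead of *Ilp2* at 3268 ± 192, while in controls *Thor* had 10421 ± 160.4 and *Ilp2* 3992 ± 54.7, ahead of *ImpL2* at 2502 ± 177. *Ilp5* had 425 ± 52.4 in mutants, below *chico* at 779 ± 44.4, and 964 ± 28.5 in controls, above *chico* at 653 ± 9.35. *Ilp6* was the lowest of the 8 in all 6 groups. Exon lengths count all isoforms of the later annotation.

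Further genes known in fly as *foxo* targets were read from a list of 12, of which 11 passed the minimum count and *Hsp22*, a small heat shock protein gene, was listed at 0 in every library. At 6 h 7 rose in mutants (8.05% of all genes tested did) and 3 in controls (5.68%). At 12 h 8 rose (12.7% of all genes) and 1 fell (10.3%) in mutants, while 4 rose in controls (7.31%; 6 of the list without control 12 h replicate 1), and the median log2 fold change of the 11 was 1.52 in mutants and 0.57 in controls, against -0.01 and 0.00 over all genes. The responses differed at 12 h for 7, each higher in mutants (7.26% of all genes), with a median over the 11 of 1.10 (0.02 over all genes).

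The lipase gene *Lip4* had 682 and 824 normalized counts at 0 h, 2475 and 2300.2 at 6 h, and 9531 and 11789 at 12 h in mutants. In controls *Lip4* had 880.4 and 851 at 0 h, 1213 and 1218 at 6 h, and 1858 and 1736 at 12 h. Its difference of the responses at 12 h was 2.77 on the log2 scale (SE 0.14, limma adjusted p = 2e-07). *bmm*, the main triglyceride lipase of the fly, reached 7374 and 8452 normalized counts in mutants and 3517 and 3382 in controls at 12 h (difference of the responses 1.48, SE 0.10, adjusted p = 1e-06). *upd2*, a leptin-like signal that acts on the insulin-producing cells by way of other neurons, had 2.59 and 3.60 normalized counts at 0 h, 70.4 and 44.9 at 6 h and 79.0 and 89.0 at 12 h in mutants, and 1.67 to 12.0 in the 6 control libraries. Its 0 h values rest on 2 to 7 reads a library. *upd2* passed the minimum count only through the mutant libraries at 6 and 12 h, where it is high. Its calls, and the list counts that hold it, are therefore no independent support for a rise in mutants. The log2 fold change of *upd2* at 12 h was 4.38 in mutants (SE 0.52, adjusted p = 2.5e-05) and 1.16 in controls (adjusted p = 0.12), and the responses differed by 3.22 (SE 0.74, adjusted p = 0.0068). Without control 12 h replicate 2 the control value of *upd2* was 1.76 and called.

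*chrb*, an inhibitor of TOR, was at -0.37 in mutants at 12 h (SE 0.08, limma adjusted p = 0.0018) and -0.17 in controls, with no call. *tobi*, an alpha-glucosidase gene, was the one gene of the list called lower in mutants at 12 h. It had 110.1 and 271 normalized counts in mutants and 1466 and 971 in controls at 0 h, and 44.4 and 90.2 in mutants and 1204 and 1065 in controls at 12 h. The genotype difference of *tobi* was -2.78 at 0 h (SE 0.43, limma adjusted p = 0.00061) and -4.14 at 12 h (adjusted p = 1e-05). Its fall in mutants at 12 h (-1.43, adjusted p = 0.014) was not called with no minimum count, without mutant 0 h replicate 2 (-0.79) or when mutant 12 h replicate 1 was left out (-0.93). *Pepck1*, a gluconeogenic enzyme, and *l(2)efl*, a small heat shock protein gene, rose in both genotypes at 12 h, by 2.53 and 2.07 on the log2 scale in mutants and by 1.37 and 0.97 in controls. *Obp99b*, an odorant-binding protein gene, rose in mutants (0.83, adjusted p = 0.0014) and was at -0.37 in controls (adjusted p = 0.12). At 0 h *Obp99b* was called lower in mutants than in controls. This call was lost with no minimum count (-0.71, limma adjusted p = 0.067), without control 0 h replicate 1 (-0.55) or without mutant 0 h replicate 1 (-0.54). At 6 and 12 h its genotype difference was not called, though at 6 h it was with median centring (0.61).

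In the kinase cascade, 11 of 12 genes were tested. At 12 h 4 rose (12.7% of all genes) and 1 fell (10.3%) in mutants, and 1 rose in controls (7.31%), with median log2 fold changes of 0.22 in mutants and 0.04 in controls. *trbl*, a pseudokinase that blocks Akt activation, moved most. *trbl* had 385 and 363 normalized counts at 0 h, 1981 and 1888 at 6 h, and 6938 and 8924 at 12 h in mutants, against 326 and 359 at 0 h, 847 and 684 at 6 h, and 1437 and 1289 at 12 h in controls. Its log2 fold change at 12 h was 4.39 in mutants and 1.99 in controls (SE 0.12 each, limma adjusted p = 1.9e-10 and 4.2e-07), and the difference of the responses was 2.40 (SE 0.17, adjusted p = 2e-06).

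Activating members of the cascade changed less. *Pi3K92E*, the catalytic subunit of phosphatidylinositol 3-kinase, rose in mutants at 12 h (log2 fold change 0.98, SE 0.06, limma adjusted p = 4.2e-08) and was at 0.35 in controls. Akt rose in mutants (0.68, adjusted p = 4.5e-07) and was at 0.17 in controls, with a difference of the responses of 0.51 that was under the fold limit. *Pdk1*, the kinase that phosphorylates Akt, rose in mutants by 0.62 (adjusted p = 2e-06) and was at 0.24 in controls, but the mutant value was 0.57 and not called without mutant 12 h replicate 2, and 0.54 with median centring. The responses differed by 0.63 for *Pi3K92E* (adjusted p = 9.8e-05) and by 0.61 for *step*, a cytohesin needed for insulin signalling (adjusted p = 0.00097). Without mutant 12 h replicate 2 these were 0.57 and 0.50, and without control 0 h replicate 2 that of *step* was 0.51, none of them called. With thinned reads they were 0.55 and 0.58, also not called. *melt*, a modulator of the pathway, fell in mutants by 0.61 (limma adjusted p = 0.001). This was -0.49 without mutant 0 h replicate 1 and -0.45 when mutant 12 h replicate 1 was left out, both inside the fold limit. *melt* had 453 and 383 normalized counts in mutants and 263 and 247 in controls at 0 h. At 12 h it had 242 and 306 in mutants, still above the 201 and 193 of controls.

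Of 17 genes of the TOR branch, which couples insulin and nutrients to growth, 14 were tested. At 12 h limma called 4 higher in mutants (12.7% of all genes) and 0 in controls (7.31% of all genes), where 6 had an unadjusted p under 0.05, edgeR and DESeq2 each called 0, and 2 were called without control 12 h replicate 1. *Sesn*, a stress-induced inhibitor of TOR, had 7703 and 8124 normalized counts in mutants and 4125 and 4239.9 in controls at 12 h, with a difference of the responses of 0.95 (SE 0.07, limma adjusted p = 1.6e-06). *Sesn* and *scyl*, another inhibitor of TOR, are also on the *foxo* target list. *scyl* rose in mutants by 0.85 and was at 0.57 in controls, where it was called at 0.61 without that library and at 0.59 with thinned reads. *Sesn* in controls (0.57) was called at 0.59 without it. *REPTOR*, a transcription factor active when TOR is low, rose in mutants by 0.69 (adjusted p = 3.5e-06). *Myc*, a growth regulator, rose in mutants by 0.83 (adjusted p = 7.7e-05), and its difference of the responses, 0.70 (adjusted p = 0.0069), was lost without control 0 h replicate 2 (0.52), when mutant 12 h replicate 2 was left out (0.58) or with no minimum count. The core components of the TOR complexes *raptor*, *rictor*, *Lst8* and *Sin1* were not called at 12 h in either genotype.

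Among other ligands and binding proteins, 5 of 7 were tested. *Sdr*, a secreted relative of the receptor that binds insulin-like peptides, had 732 and 802 normalized counts at 0 h, 623.5 and 573 at 6 h, and 352 and 380.2 at 12 h in mutants. In controls *Sdr* had 914 and 914 at 0 h, 985 and 1082 at 6 h, and 1046 and 1050.1 at 12 h. *Sdr* fell by 1.06 in mutants (limma adjusted p = 2.4e-07) and was at 0.20 in controls (difference of the responses -1.26, SE 0.10, adjusted p = 5.2e-06). In mutants, then, *Sdr* changed in the direction opposite to *ImpL2*, which also binds insulin-like peptides, while in controls both values were positive. *conv*, which forms a complex with *ImpL2* and Ilp peptides, was higher in mutants at 0 h (1.02, SE 0.19, adjusted p = 0.0024). The call of *conv* in controls at 6 h (0.62) was lost with DESeq2 and that at 12 h (0.59) with edgeR and DESeq2, and without control 0 h replicate 2 they were 0.34 and 0.32. The 6 h call was also lost when control 6 h replicate 2 was left out (0.46) or mutant 6 h replicate 2 was (0.62, with an adjusted p just over the limit), and the 12 h call when control 12 h replicate 2 was (0.43). *Ilp1*, *Ilp7* and *Lgr3*, a relaxin receptor that binds *Ilp8*, were not called.

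Hormones that act on the insulin-producing cells or oppose insulin were tested for 13 of 14 listed genes. At 12 h 2 rose, with *upd2* among them, and 1 fell in mutants, against 12.7% and 10.3% of all genes, and 1 fell in controls, against 2.86%. The gene that fell was *CCHa2*, a nutrient-dependent peptide that promotes release and synthesis of brain insulins. *CCHa2* had 3378 and 4329 normalized counts at 0 h, 835 and 923 at 6 h, and 734 and 745 at 12 h in mutants. In controls *CCHa2* had 4624 and 4959 at 0 h, 1973 and 2270.5 at 6 h, and 2009.9 and 1941 at 12 h. Its log2 fold change at 12 h was -2.37 in mutants and -1.28 in controls (SE 0.10 each, limma adjusted p = 4.5e-09 and 3.6e-06), and the responses differed by -1.09 (SE 0.15, adjusted p = 0.00017). *Gbp1*, a growth-blocking peptide made by fat body, rose in mutants at 12 h (0.70, adjusted p = 0.00016), which was 0.58 and not called without mutant 12 h replicate 2. *Gbp2* was lower in mutants than in controls at 12 h (-0.68, adjusted p = 0.0038), which was -0.47 and not called without mutant 12 h replicate 1. At 12 h against 0 h *AkhR*, the receptor of the fly's glucagon-like hormone, was at -0.33 in mutants and -0.17 in controls, neither called. Between the genotypes at 12 h *AkhR* was called. There 5 genes of this list were called, 2 higher and 3 lower in mutants (9.46% and 10.2% of all genes). *AkhR* is also a fat body marker, and all 6 of those tested were called there, 2 higher and 4 lower.

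Markers of tissues in the head were read beside these changes. The summed counts of 7 of 8 fat body markers ran from 23190 to 27943 in mutants and from 76780 to 78731 in controls at 12 h, and from 75572 to 96986 in mutants and from 142494 to 145800 in controls at 0 h. They did not move as one. In mutants at 12 h *apolpp*, which encodes the main lipid carrier, *Lsp2*, a storage protein gene, and *to* fell by 3.25, 2.85 and 2.61 on the log2 scale, while *Lsd-1*, which coats lipid droplets, and *bmm* rose by 1.21 and 2.59. *Fbp2* was below the minimum count. Of the 4 muscle markers, 3 were lower in mutants than in controls at 0 h, against 5.25% of all genes. At 12 h 3 of them fell in mutants, against 10.3% of all genes. The fall of *Act88F*, a flight muscle actin gene, was not called with no minimum count (-0.65, limma adjusted p = 0.068). Leaving out the second mutant library of 0 h gave -0.45 for *Act88F*, and that of 12 h gave -0.50, both inside the fold limit. The muscle sum was 34679 to 36591 in mutants and 63924 to 68376 in controls at 12 h. The 4 neuron markers had log2 fold changes between -0.34 and 0.15 in the 11 comparisons, with 0 of 44 results called by limma, edgeR or DESeq2 and 13 at an unadjusted p under 0.05, and summed to 129722 to 131325 in mutants and 132382 to 137111 in controls at 12 h. Of the 4 hemocyte (blood cell) markers, 3 were called in mutants at 12 h (12.7% of all genes higher and 10.3% lower). There *NimC1*, a phagocytosis receptor, rose by 3.03 and *Hml* and *vkg* fell by 0.99 and 1.07. Against controls at 0 h, *Hml* and *NimC1* were at -1.80 and -2.26 in mutants. The hemocyte sum was 4245 to 4440 in mutants and 4959 to 5079 in controls at 12 h. Of the 5 glia markers, *moody* rose by 0.83 and *repo* and *nrv2* fell by 0.80 and 1.17 in mutants at 12 h, and their sum was 27454 to 32256 in mutants and 34537 to 36820 in controls. Of the 4 photoreceptor markers, *inaC* alone was called in any of the 11 comparisons, at 1.04 in mutants against controls at 0 h and -1.13 in mutants at 12 h, and their sum was 1237552 to 1280708 in mutants and 1108707 to 1125529 in controls at 12 h. Each of these 13 markers passed the minimum count. The share of any tissue in the levels of *Ilp6*, *ImpL2*, *Thor* or the lipases was not tested.

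Genes whose pattern was most like that of a member were found by Pearson's r over the 12 libraries, on log2 normalized counts of 9237 genes. The points share genotype, hour and depth, so r describes a pattern and carries no p. *Thor* was nearest to *Bcat* (r = 0.997) and *CG3740* (0.994), and *ImpL2* to *Bdp1* (0.995) and an ID with no symbol, FBgn0024891 (0.994). *Thor* and *ImpL2* had r = 0.98 with each other. *Ilp5* was nearest to *TpnC25D* (0.985) and *CG8343* (0.985), *Ilp3* to *CG9760* (0.982) and FBgn0000409 (0.969), and *Ilp2* to *CadN2* (0.975) and *CG1764* (0.973). *foxo* was nearest to *CG43051* (0.981) and *CG8031* (0.978), *chico* to *RecQ5* (0.978) and *MBD-R2* (0.974), and *Ilp6* to *CPT2* (0.96) and *tsl* (0.929).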

How the data were processed

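Libraries, 2 per group, were made from 200 pooled heads of male G9a mutants or controls, taken at 0, 6 and 12 h on 50 mM paraquat. The authors used BWA for alignment to build BDGP 5, HTSeq for counts per gene and DESeq size factors for scaling; versions and the strand setting are not given in the sources used here. The deposited table holds these normalized counts (signal). Divided by the smallest value in its library, each of the 188184 values came out whole within 0.01 reads (100%), so reads were recovered. The authors' 4 tables of DESeq comparisons (means, fold changes, p-values) were not used.

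limma 3.58.1 (R 4.3.3, lmFit, eBayes with trend) was run on log2 of the normalized count plus 1, with 1 mean for each of 6 groups, 6 residual degrees of freedom and 10530 genes with a mean of at least 10. Calls required 1.5-fold or more and a p of no more than 0.05 after Benjamini-Hochberg adjustment. Ratios of groups are folds on this scale. Members and lists were chosen with earlier results of these data known. All members were named, and of each list up to 4 called genes by the size of the difference of the responses at 12 h; *Pdk1*, *melt*, *Pepck1*, *l(2)efl*, *Obp99b*, *chrb*, *AkhR*, *Ilp1*, *Ilp7*, *Lgr3*, *Sin1*, *raptor*, *rictor*, *Lst8* and the markers are named to account for lists, after their values were seen. Symbols (15002 of 15682 IDs), exon lengths and neighbours came from Ensembl release 115 on build BDGP 6, so no coordinates are given. *InR*, *S6k*, *PRAS40*, *FASN1*, *para*, *susi* and Tor could not be paired and are not analysed here. One further gene of the kinase cascade list is not reported here and was left out of that list's counts and medians.

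Alternatives were TMM scaling or median centring, no minimum or one of 50, a pseudocount of 0.5 or 5, a fit of the compared libraries alone, a block for the replicate number, edgeR 4.0.16 and DESeq2 1.42.0 on recovered reads, thinning to 19275805 reads, and each library left out in turn. The fits were tested on simulated counts in which genes changed only in mutants at 12 h. Each change was larger than 1.5-fold, so this test does not bear on values near that limit.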

Additional observations from a re-analysis of the deposited data

Results flagged for a closer look

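The response to paraquat differed between G9a mutants and controls, by a limma test of the difference itself, for 2 of the 8 genes. Of 49 listed genes tested, 7 were called at 6 h (6 higher and 1 lower, against 3.5% and 4.68% of all genes) and 13 at 12 h (11 higher and 2 lower, against 7.26% and 8.53% of all genes). The values below are mutant minus control differences of log2 fold changes against 0 h.

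For *Thor* the difference was 1.49 at 6 h and 2.02 at 12 h, and for *ImpL2* 1.04 and 2.01. Both kept these calls in each of the 23 alternatives.

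*trbl* differed by 1.22 at 6 h and 2.40 at 12 h, and *Sesn* by 0.95 at 12 h. *Lip4* differed by 1.18 at 6 h and 2.77 at 12 h, and *bmm* by 0.71 and 1.48. *upd2* differed by 3.53 at 6 h and 3.22 at 12 h, from 2 to 7 reads in a 0 h library. It is among the genes counted above, but passed the minimum count only through the mutant libraries at 6 and 12 h.

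*Obp99b*, called lower in mutants than in controls at 0 h, differed by 1.29 at 6 h and 1.20 at 12 h. *l(2)efl* differed by 1.27 and 1.10, and *Pepck1* by 1.16 at 12 h.

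At 12 h the difference was 0.63 for *Pi3K92E*, 0.61 for *step* and 0.70 for *Myc*, and each of these calls was lost without mutant 12 h replicate 2 (0.57, 0.50 and 0.58). Without control 0 h replicate 2, the calls of *step* (0.51) and *Myc* (0.52) were lost too.

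Differences in the other direction were found for *Sdr*, -1.26 at 12 h, and for *CCHa2*, -0.94 at 6 h and -1.09 at 12 h.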

How the results depend on the processing

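Over the 8 genes and 11 comparisons, 31 of 88 results were called. Of all 10530 genes, 361 to 2424 were called in a comparison. Among the 88 results, 27 were called in the main fit and in each of the 23 alternatives. A further 48 were called in none, and 13 changed sides in at least 1. No called result changed sign. The values that changed sides stand beside the results. With no minimum count, 239 genes of all were called from 6 to 12 h in controls, against 361. Leaving out 1 library gave 1 to 2 members and 232 to 372 genes in that comparison. The replicate numbers share only a label: the correlation of the duplicates' deviations ran from -0.57 to 0.45 over 15 pairs of groups. With the replicate number as a block, the count of members called was the same in all 11 comparisons (4 at 12 h in mutants), 2417 genes in place of 2424 were called at 12 h in mutants, and no call of a member changed. For 17 listed genes, 25 of 187 results changed sides. *Ilp3*, *Ilp5* and *Ilp6* rest on the fewest reads, from 154 a library for *Ilp5*. With 2 libraries per group, several values of the peptides, *Ilp2* included, lay close to 1.5-fold.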
